A study of Mus musculus with 48 samples.

Results

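The cells compared were mouse 32D-BCR/ABL cells carrying Δ(177-191) C/EBPα-ER and the same parental cells carrying the empty MigRI vector, both before any 4-hydroxytamoxifen (4-HT) was given. All 6 arrays labelled 0 h in these lines were taken, 3 from Δ(177-191) cells and 3 from vector cells, out of 48 arrays in the series. 32D is a mouse myeloid progenitor line, here expressing the BCR/ABL oncoprotein, so every group carried BCR/ABL and a MigRI retrovirus. The fusion joins C/EBPα to the estrogen receptor's ligand-binding region, which 4-HT activates. Δ(177-191) lacks residues 177 to 191 and is described in the labels as deficient in the interaction with CDK2 and CDK4. The WT fusion and K298E, a fusion that the labels call DNA-binding deficient, were sampled at 0 h in the same way and serve as side values, with 3 arrays each. Cells grew in Iscove medium with fetal bovine serum, and the labels name no 4-HT at 0 h, no separate clones and 1 line per construct. The construct and the line that carries it cannot be told apart in this design. The treatment note counts 3 separate experiments for the later times, and the design text calls all times, 0 h included, triplicates. Whether the 3 untreated arrays of a line came from separate cultures is therefore not certain, and a p-value then speaks to array-to-array spread alone, which may be technical.

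C/EBPα is a transcription factor of granulocyte and monocyte precursors. It binds DNA as a dimer, also with its relatives C/EBPβ and C/EBPδ, works together with PU.1 (Spi1), and slows the cell cycle. Progenitors that turn into granulocytes stop making factors such as Myb, Gata2 and Sox4 and start making granule proteins, the oxidase that kills microbes, integrins and receptors for bacteria and antibodies. BCR/ABL is a constantly active tyrosine kinase that drives growth through STAT5, ERK and Myc.

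On these 6 arrays the median signal lay between 12 and 15 and the Gapdh control probe sets gave 3'/5' ratios of 0.835 to 0.880 on vector and 0.811 to 0.835 on Δ(177-191) arrays. Pearson's r of log2 values over the 27167 probe sets tested was 0.971 to 0.977 within vector arrays and 0.970 to 0.973 within Δ(177-191) arrays. Between the 2 lines it was 0.936 to 0.943. Vector arrays were closer to those of the other fusion lines, with 0.961 to 0.970 for WT and 0.964 to 0.970 for K298E. No 2 arrays were identical. The blood cell markers Ptprc, Spi1, Vav1, Coro1a, Laptm5 and Csf2rb all exceeded a mean signal of 100 in both lines. Among 8 markers of myeloid progenitors, Cd34, Kit, Mpo, Elane and Ctsg were under a signal of 20 in both lines. All 5 lymphoid and all 7 fibroblast markers on the array were also under 20 in both lines.

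The estrogen receptor part of the fusions was looked for first, as a check of the labels. The brightest Esr1 probe set gave signals of 19, 17 and 19 in vector cells and 3672, 3329 and 2787 in Δ(177-191) cells. It was 2607, 2589 and 2228 in WT and 1316, 1403 and 1599 in K298E cells, so every fusion array lay far above every vector array. The Δ(177-191) arrays were not above WT past the threshold (0.39 ± 0.24 log2 units, adjusted p = 0.293) but were above K298E (1.17 ± 0.24, adjusted p = 0.000199).

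Of 27167 probe sets tested, 2834 were higher and 3421 lower in Δ(177-191) than in vector cells at an adjusted p under 0.05 (limma, Benjamini-Hochberg), which is 23.0%. By gene, with 1 probe set each, 1690 of 12800 were higher (13.2%) and 1956 lower (15.3%). The difference reached 2-fold in 437 higher and 457 lower genes and 4-fold in 125 and 129. For 5479 genes, 42.8%, the 3 signals of 1 line did not overlap the 3 of the other. The median difference over all genes was -0.01, and calls lay on both sides of it. The genes named below follow a rule of size within the whole table and within each list; the 50 that go beyond it, given as further members of the lists, were chosen after their values were seen. Counts over a list are over the members that passed a filter on low values, and a member may have passed only through the line where it is high, so they describe the list and support nothing beyond it. All differences below are Δ(177-191) minus vector in units of log2(signal + 3) with the standard error of the model, and this scale understates changes of dim genes.

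**Figure D1:**
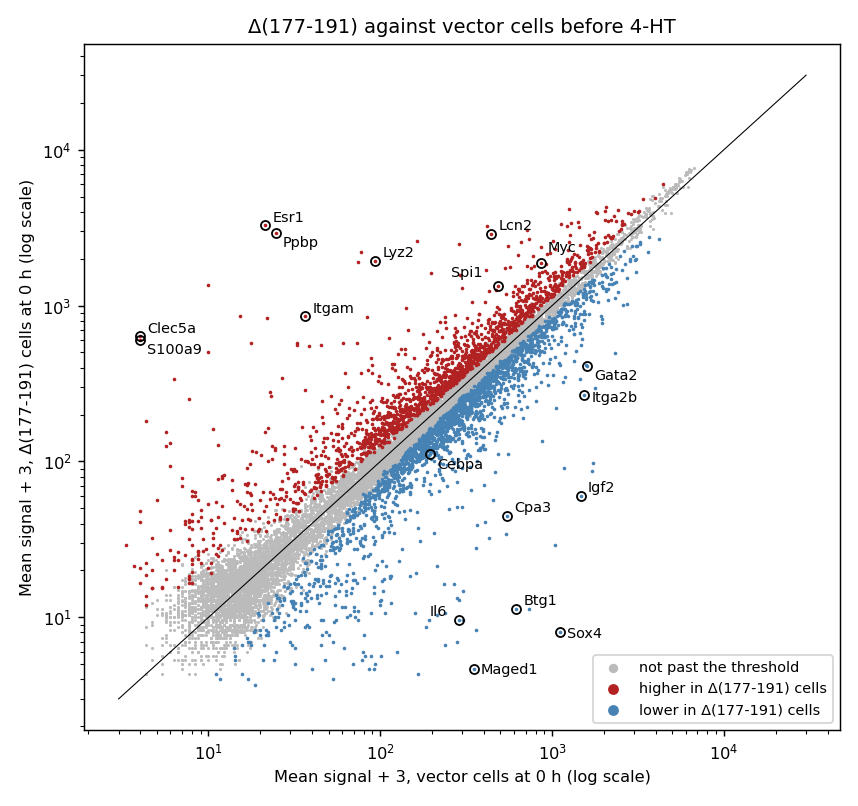
Mean signal + 3 of each of 12800 genes in vector cells (x, log scale) against Δ(177-191) cells (y, log scale) at 0 h, with 1690 genes higher (red), 1956 lower (blue) and the others grey; the line marks equal signals. Esr1, Ppbp, Clec5a and S100a9 stand far above the line, and Sox4, Maged1 and Btg1 lie far below it.

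Granule and antimicrobial genes of late neutrophils were higher in Δ(177-191) cells without any 4-HT. Of 24 genes on the list 22 were on the array and 16 passed the filter. Of these, 12 were higher and 1 lower, against 13.2% and 15.3% of all genes, with a median difference of 2.09 against -0.01. S100a9, one chain of the calprotectin complex of neutrophils and monocytes, had signals of 1, 0 and 2 in vector and 599, 568 and 627 in Δ(177-191) cells. Its partner S100a8 was at 16, 3 and 2 in vector and 519, 470 and 509 in Δ(177-191) arrays. Neither pair of groups overlapped, and the differences were 7.26 ± 0.31 (adjusted p = 1.65e-22) for S100a9 and 5.92 ± 0.35 (adjusted p = 6.42e-18) for S100a8. Stfa2l1, a cysteine protease inhibitor of the stefin family, went from 5, 12 and 4 to 1572, 1230 and 1235, a difference of 7.15 ± 0.33 (adjusted p = 1.51e-21). Lcn2, which keeps iron from bacteria, was at 432, 436 and 443 in vector cells and 3057, 2930 and 2652 in Δ(177-191) cells. That is a rise from a clear signal rather than from the floor, by 2.71 ± 0.14 (adjusted p = 1.81e-19). Lactoferrin (Ltf, 2.08 ± 0.21), neutrophilic granule protein (Ngp, 2.55 ± 0.33), haptoglobin (Hp, 3.59 ± 0.28) and gelatinase B (Mmp9, 2.02 ± 0.39) rose too, while the leukotriene B4 receptor gene Ltb4r1 was the member that fell (-0.71 ± 0.14). The summed signal of the 8 granulocyte markers was 558 to 613 on vector arrays and 4237 to 4648 on Δ(177-191) arrays. Most of both sums is Lcn2, and Camp and Mmp8 were under 20 in both lines. In bulk samples a change in the share of cells of 1 type and a change of RNA per cell cannot be told apart, here as for every group that follows.

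Primary granule genes, made at the promyelocyte stage, split. Lysozyme was high, with Lyz2 at 83, 92 and 95 in vector and 1935, 1958 and 1895 in Δ(177-191) cells, a difference of 4.38 ± 0.13 (adjusted p = 4.62e-28). The neighbouring Lyz1 gave 63, 75 and 83 against 2222, 2195 and 2169, and as the 2 genes are near-identical copies, their probe sets may read each other. Myeloperoxidase (Mpo), the main enzyme of these granules, stayed near the floor at 20, 10 and 14 in vector and 8, 2 and 20 in Δ(177-191) cells (-0.67 ± 0.40, adjusted p = 0.27), and it passed as lower only without Δ(177-191) array 3 (-1.21, adjusted p = 0.0293). Prtn3 (0.16 ± 0.13, adjusted p = 0.455) and Elane (0.49 ± 0.53, adjusted p = 0.611), its companion proteases, did not pass either. Of the 11 members tested, 4 were higher and 1 lower, the elastase inhibitor Serpinb1a (-1.41 ± 0.12). Plac8 was called higher (0.41 ± 0.12), though not without vector array 1 (adjusted p = 0.0914) or under median centring (adjusted p = 0.182). Ctsg was called higher at dim signals of 6, 3 and 2 against 8, 15 and 15 (adjusted p = 0.025). That call was lost without Δ(177-191) array 2 or 3 (adjusted p = 0.0941 and 0.0937) or vector array 2 or 3 (adjusted p = 0.0725 and 0.118). The Ctsg call was also lost when only these 6 arrays were fitted (adjusted p = 0.0731) or at a pseudocount of 32 (adjusted p = 0.073). Csf3r, the receptor for the granulocyte growth factor G-CSF, was at 54, 44 and 48 and 81, 101 and 70 (0.74 ± 0.32, adjusted p = 0.0914). The groups did not overlap, and Csf3r passed when only these 6 arrays were fitted (adjusted p = 0.00469) or with array weights (adjusted p = 0.0243). It also passed at a pseudocount of 12 (adjusted p = 0.0408) or 32 (adjusted p = 0.0151).

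Promoter letters of the genes that moved were read from RefSeq (GRCm38.p6), over the 250 bases before each start, for 10366 of the 12800 genes. TTGCNNAA, the core letters that C/EBP dimers are known to bind, was found on either strand in 23 of 98 (23.5%) of genes at least 4-fold higher, in 8 of 98 (8.16%) of those at least 4-fold lower and in 937 of 10366 (9.04%) of all tested; over all promoters of the table it was 2930 of 27025 (10.8%). In genes 2-fold or more higher it was 53 of 352 (15.1%), and lower 23 of 358 (6.42%). GAGGAAGT, a form of the PU.1 site, was in 7 of 98 (7.14%) of the 4-fold higher, 1 of 98 (1.02%) of the 4-fold lower and 306 of 10366 (2.95%) of all. TGANTCA, a form of the AP-1 site, was in 18 of 98 (18.4%), 7 of 98 (7.14%) and 634 of 10366 (6.12%). TTCNNNGAA, the STAT form, was in 8 of 98 (8.16%), 7 of 98 (7.14%) and 761 of 10366 (7.34%). Both strands were searched and matches of different motifs may overlap. Matches describe letters and not binding, and the motifs were chosen with the differences known. Among the 15 genes with the largest rises, 12 had a promoter in the table and 4 of them held TTGCNNAA, Esr1 included, whose signal is high in every fusion line. Among the 15 with the largest falls it was 1 of 11, the cytokine gene Il6. The promoters of the other 3 rises and of Il6 are shown because the motif lies in genes that moved to opposite sides; capitals mark TTGCNNAA on either strand.
S100a9, chr3:90695722-90695971, minus strand: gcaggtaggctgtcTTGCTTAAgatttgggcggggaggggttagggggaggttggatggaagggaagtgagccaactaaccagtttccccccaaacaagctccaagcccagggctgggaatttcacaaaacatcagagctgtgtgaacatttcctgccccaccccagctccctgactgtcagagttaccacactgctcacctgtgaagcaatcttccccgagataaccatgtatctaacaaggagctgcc
Lyz1, chr10:117292869-117293118, minus strand: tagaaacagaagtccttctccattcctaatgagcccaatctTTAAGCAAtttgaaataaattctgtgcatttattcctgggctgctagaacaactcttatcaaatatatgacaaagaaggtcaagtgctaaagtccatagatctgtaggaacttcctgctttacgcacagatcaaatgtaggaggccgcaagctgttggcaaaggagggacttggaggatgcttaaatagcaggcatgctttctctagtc
P2ry10, chrX:107088242-107088491, plus strand: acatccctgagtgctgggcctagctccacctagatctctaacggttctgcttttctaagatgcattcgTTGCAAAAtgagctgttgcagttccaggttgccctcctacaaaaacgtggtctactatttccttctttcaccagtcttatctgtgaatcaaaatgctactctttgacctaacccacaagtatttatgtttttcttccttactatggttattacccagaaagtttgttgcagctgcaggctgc
Il6, chr5:30012864-30013113, plus strand: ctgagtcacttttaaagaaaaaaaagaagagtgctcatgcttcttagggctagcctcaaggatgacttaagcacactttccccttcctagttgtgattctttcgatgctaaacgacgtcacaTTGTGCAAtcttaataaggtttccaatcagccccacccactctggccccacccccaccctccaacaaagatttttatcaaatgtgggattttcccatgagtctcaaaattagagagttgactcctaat
In S100a9 the match starts 236 bases before the start of transcription, in Lyz1 209, in P2ry10 182 and in Il6 128.

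Receptors of the C-type lectin, paired and inhibitory families, by which phagocytes sense microbes and dead cells, were mostly higher. Of 24 genes on the list 20 were on the array and 19 passed the filter. Of these, 12 were higher and 1 lower, with a median of 1.12. Clec5a, an activating lectin of monocytes and neutrophils, was at 2, 0 and 1 in vector and 603, 655 and 637 in Δ(177-191) cells, 7.34 ± 0.39 (adjusted p = 1.82e-19), the largest rise of any gene with a mean signal of 100 or more. Clec4n (Dectin-2), a receptor for fungal mannans, gave 17, 9 and 11 against 797, 870 and 892. Its neighbour Clec4d was at 63, 71 and 78 against 2019, 1874 and 1836. In all 3 the lowest Δ(177-191) array exceeded the highest vector array many times over, by 5.84 ± 0.33 for Clec4n and 4.70 ± 0.14 for Clec4d. Cd33, an inhibitory sialic acid receptor of myeloid cells, went from 4, 1 and 3 to 127, 124 and 118 (4.51 ± 0.31), and Igsf6 from 1, 1 and 2 to 172, 168 and 195 (5.39 ± 0.35). Clec4e (2.12 ± 0.14), Clec7a (2.02 ± 0.55), Pirb (1.96 ± 0.11) and Trem1 (1.20 ± 0.23) followed, and Treml2 alone fell (-0.74 ± 0.10).

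Several genes of phagocytosis and of the oxidative burst were higher in Δ(177-191) cells. In the oxidase list 4 of 6 tested were higher and none lower. The subunit gene Ncf1 (p47phox) had 714, 760 and 706 in vector and 2847, 2641 and 2528 in Δ(177-191) cells, 1.87 ± 0.09 (adjusted p = 3.01e-21). Ncf4 (1.38 ± 0.11), Cyba (1.29 ± 0.12) and the proton channel Hvcn1 (1.23 ± 0.12) rose, whereas the GTPase genes Rac1 (0.10 ± 0.09, adjusted p = 0.563) and Rac2 (0.01 ± 0.11, adjusted p = 0.958) did not pass. Among β2 integrins and Fcγ receptors 8 of 12 were higher and 1 lower. Itgam (CD11b), the integrin chain that marks granulocytes and monocytes, was at 32, 30 and 39 in vector cells and 813, 897 and 845 in Δ(177-191) cells, 4.55 ± 0.16 (adjusted p = 1.90e-25). Its partner chain Itgb2 moved less (0.63 ± 0.10), and the kinase gene Syk (1.67 ± 0.09), the adaptor Tyrobp (1.39 ± 0.09), Fcgr3 (1.03 ± 0.10) and Fcgr1 (0.73 ± 0.13) rose as well. Fcgr4 was called higher (1.29 ± 0.37) but not without vector array 1 (adjusted p = 0.131).

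Lysosomal genes were mostly higher, and fewer of the monocyte and macrophage genes were. Of 20 monocyte and macrophage genes tested 9 were higher, 1 lower and 10 not called, and the summed signal of 7 monocyte and macrophage markers was 1058 to 1159 on vector and 2962 to 3041 on Δ(177-191) arrays. Cathepsin S (Ctss), a protease of antigen-presenting cells, was at 25, 33 and 31 against 558, 567 and 552, 4.11 ± 0.18 (adjusted p = 3.25e-22). Cd68, a lysosomal glycoprotein of phagocytes, gave 410, 415 and 405 against 1696, 1725 and 1603, 2.02 ± 0.08. Both groups were tight and apart. The M-CSF receptor Csf1r rose less (0.94 ± 0.21, adjusted p = 0.000636), and of the defining macrophage markers C1qa and Marco remained under a signal of 20 in both lines. Of 27 lysosomal genes 18 were higher and 1 lower, the regulator Tfeb (-0.69 ± 0.24), whose call (adjusted p = 0.0314) was lost without Δ(177-191) array 2 (adjusted p = 0.228) and without vector array 1, 2 or 3 (adjusted p = 0.0501, 0.11 and 0.0636). Psap (1.39 ± 0.10), Gla (1.47 ± 0.08), Lipa (1.29 ± 0.10) and Ctsd (0.89 ± 0.11) were among the lysosomal rises besides Ctss.

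In antigen presentation 9 of 14 were higher and none lower. The invariant chain Cd74, which escorts MHC class II, was at 1199, 1289 and 1260 in vector and 4595, 4118 and 3667 in Δ(177-191) cells, 1.72 ± 0.11 (adjusted p = 1.92e-16). MHC class I partners B2m (0.76 ± 0.12), H2-D1 (0.95 ± 0.12) and Psmb9 (0.95 ± 0.10) rose, while the class II genes H2-Aa (0.92 ± 0.66, adjusted p = 0.388) and H2-Eb1 (1.34 ± 0.58, adjusted p = 0.0971) did not pass. From the dendritic list 8 of 14 were higher and 2 lower, among them Cst3 (1.56 ± 0.08) and the chemokine gene Ccl22 (2.45 ± 0.54).

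Pattern recognition genes had 14 of 25 higher and 1 lower. The inflammasome sensor gene Nlrp3 was at 23, 18 and 19 in vector and 195, 342 and 242 in Δ(177-191) cells, 3.48 ± 0.46 (adjusted p = 5.81e-08). The scatter among the Δ(177-191) arrays was wide, but none came near a vector array. Tlr2 (1.37 ± 0.18), Tlr13 (2.37 ± 0.45), Casp1 (1.16 ± 0.18) and Il18 (2.71 ± 0.55) rose with it. Irak3, a brake on Toll-like receptor signalling, was the member that fell, from 88, 71 and 70 to 5, 3 and 1 (-3.77 ± 0.21, adjusted p = 1.56e-18). Chemokines and cytokines moved both ways, with 14 of 26 higher and 6 lower. Ppbp, a platelet and neutrophil-attracting chemokine gene, was at 17, 21 and 27 against 3013, 2955 and 2817, 6.91 ± 0.25 (adjusted p = 2.09e-25). Its relative Pf4 gave 38, 30 and 39 against 554, 525 and 569, 3.84 ± 0.17. Ccl9 (3.99 ± 0.13), Ccl3 (2.93 ± 0.50) and Cxcl2 (2.41 ± 0.25) were also higher. On the other side Il6 fell from 266, 281 and 303 to 12, 7 and 1 (-5.08 ± 0.27, adjusted p = 3.14e-19) and Il4 from 73, 65 and 75 to 7, 1 and 12 (-3.13 ± 0.26). Of 12 chemoattractant receptor genes 4 were higher (33.3%) and 2 lower (16.7%). Ccr1 led the rises (17, 21 and 19 against 796, 896 and 809, 5.25 ± 0.20), and Cxcr4 (-2.34 ± 0.23) was the larger fall. Alox5, the lipoxygenase that starts leukotriene synthesis, fell from 344, 282 and 277 to 4, 4 and 12 (-5.07 ± 0.32). Ltc4s, which makes leukotriene C4, rose (1.82 ± 0.09). In the leukotriene and prostaglandin list 4 of 13 were higher (30.8%) and 2 lower (15.4%). Over all genes 13.2% were higher and 15.3% lower, so no excess of falls is read from this list or the chemoattractant receptors.

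**Figure D2:**
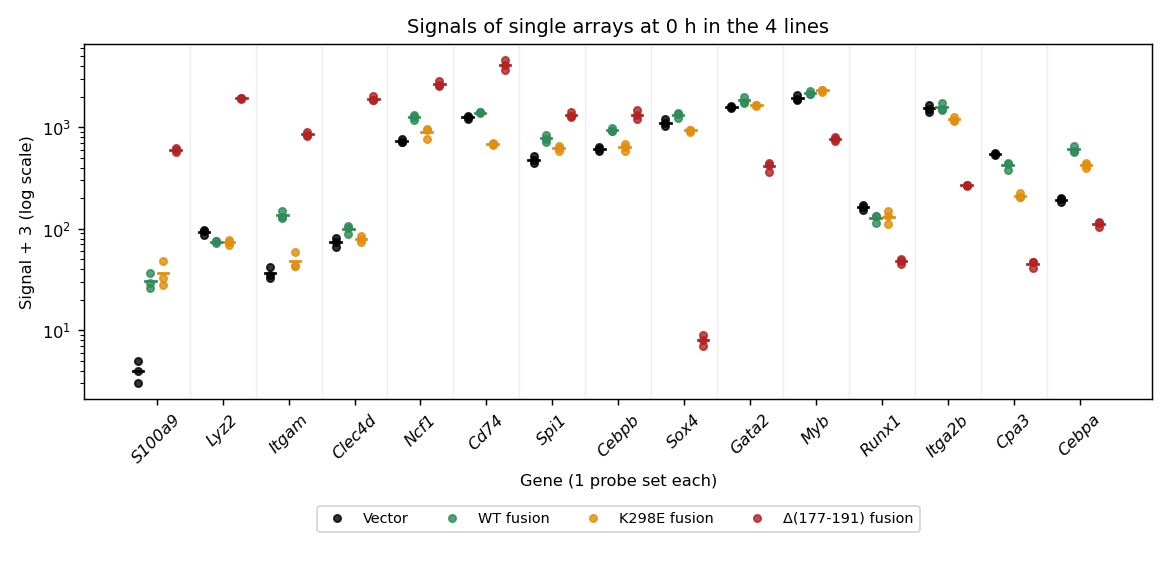
Signal + 3 on single arrays (points, log scale) and group means (bars) at 0 h for 15 genes in the 4 lines, 3 arrays each. Δ(177-191) arrays (red) lie above those of the other 3 lines for S100a9, Lyz2, Itgam, Clec4d, Ncf1, Cd74, Spi1 and Cebpb, and below them for Sox4, Gata2, Myb, Runx1, Itga2b, Cpa3 and Cebpa.

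Transcription factors of stem and progenitor cells were lower in the same cells. Of 29 genes on the list 27 were on the array and 21 passed the filter. Of these, 13 were lower and 1 higher, with a median of -0.57. Sox4, which blocks myeloid maturation when kept on, fell from 1021, 1104 and 1203 in vector cells to 4, 5 and 6 in Δ(177-191) cells, -7.12 ± 0.33 (adjusted p = 1.28e-21). It went to the floor of the scale, and 4 other Sox4 probe sets with vector means of 102 to 233 lay between 2 and 7 in Δ(177-191) cells; of the 3 dimmest, 1 did not pass and 2 were filtered out. Gata2, a regulator of stem cell and mast cell fate, was at 1604, 1599 and 1547 against 359, 427 and 441, -1.95 ± 0.08 (adjusted p = 1.60e-22). Myb, which keeps progenitors proliferating, was at 1891, 2089 and 1878 against 762, 735 and 807, -1.34 ± 0.10 (adjusted p = 1.04e-14). Runx1 was at 149, 160 and 170 against 47, 42 and 45, -1.77 ± 0.16 (adjusted p = 6.43e-12). None of the 4 overlapped between lines, which was also true of 42.8% of all genes. A second Gata2 probe set and 2 further Myb probe sets also fell, and of 5 other Runx1 probe sets 1 fell and 4 did not pass. Meis1 (-2.42 ± 0.30), Zfpm1 (-1.74 ± 0.10), Ikzf2 (-1.39 ± 0.10), Tal1 (-0.91 ± 0.07) and Fli1 (-0.74 ± 0.09) were lower. Ikaros (Ikzf1) was the member that rose (0.54 ± 0.08). Hoxa9 (0.14 ± 0.58, adjusted p = 0.919), Lmo2 (0.08 ± 0.09, adjusted p = 0.613) and Mecom (0.24 ± 0.10, adjusted p = 0.094) did not pass. Mecom passed only when the 6 arrays were fitted alone (adjusted p = 0.0357) or with array weights (adjusted p = 0.0398).

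Mast cell, erythroid and megakaryocyte genes were lower more often than higher, though about as many were not called. Of 12 mast cell, basophil and eosinophil genes 6 were lower, 1 higher and 5 not called, with a median of -1.49, and of 15 erythroid and megakaryocyte genes 7 were lower, 1 higher and 7 not called, with a median of -0.43. Gata1 stands in both lists and Gata2 in the first. Carboxypeptidase A3 (Cpa3), a mast cell protease, fell from 539, 560 and 528 to 44, 38 and 44, -3.60 ± 0.13 (adjusted p = 8.72e-26). Itga2b, the platelet integrin chain CD41, fell from 1646, 1522 and 1425 to 270, 258 and 266, -2.52 ± 0.10 (adjusted p = 1.48e-23). Gata1 itself went from 58, 67 and 77 to 5, 9 and 12, -2.63 ± 0.26 (adjusted p = 6.41e-11). The monoamine transporter gene Slc18a2 (-2.11 ± 0.09), Hdc (-2.18 ± 0.38), Gp9 (-3.19 ± 0.44) and Itgb3 (-1.90 ± 0.39) fell. The exceptions were Gzmb (2.33 ± 0.43) among mast cell genes and Pf4, named above, among megakaryocyte genes. The summed signal of the 6 mast cell and basophil markers was 570 to 624 on vector arrays and 63 to 75 on Δ(177-191) arrays. Most of that sum is Cpa3, and Fcer1a, Ms4a2, Mcpt8 and Tpsb2 were under 20 in both.

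Among myeloid transcription factors 11 of 33 were higher (33.3%) and 9 lower (27.3%), against 13.2% and 15.3% over all genes. Of genes with a mean signal of 100 or more 23% were lower, so no excess of falls is read from the list. PU.1 (Spi1), the partner of C/EBP factors in myeloid cells, was at 478, 516 and 441 in vector and 1413, 1302 and 1249 in Δ(177-191) cells, 1.46 ± 0.10 (adjusted p = 5.18e-16). Id2, an inhibitor of basic helix-loop-helix factors, was at 452, 503 and 458 against 1314, 1259 and 1198, 1.41 ± 0.12. Neither overlapped. In the C/EBP family, Cebpb had 606, 585 and 632 against 1485, 1195 and 1315, 1.12 ± 0.10 (adjusted p = 3.77e-12). Cebpd had 108, 118 and 127 against 225, 201 and 225, 0.87 ± 0.13 (adjusted p = 1.71e-06). Cebpg was lower (-0.59 ± 0.08), and so was Cebpa, at 194, 198 and 179 in vector and 100, 114 and 111 in Δ(177-191) cells, -0.80 ± 0.14 (adjusted p = 2.55e-05). The Cebpa probe set stood at 580, 653 and 573 in WT and 392, 424 and 437 in K298E cells, above every vector array; whether it reads the transgene was not tested. Gfi1, a repressor needed by neutrophils, was lower (-0.63 ± 0.10), as were Tfec (-2.36 ± 0.12) and Fos (-2.15 ± 0.23). Irf8, a monocyte factor, passed narrowly (0.62 ± 0.22, adjusted p = 0.0399). It no longer did without Δ(177-191) array 2 or 3 (adjusted p = 0.143 and 0.102), without any 1 vector array (adjusted p = 0.0631, 0.106 and 0.0973) or under median centring (adjusted p = 0.0993).

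**Figure D3:**
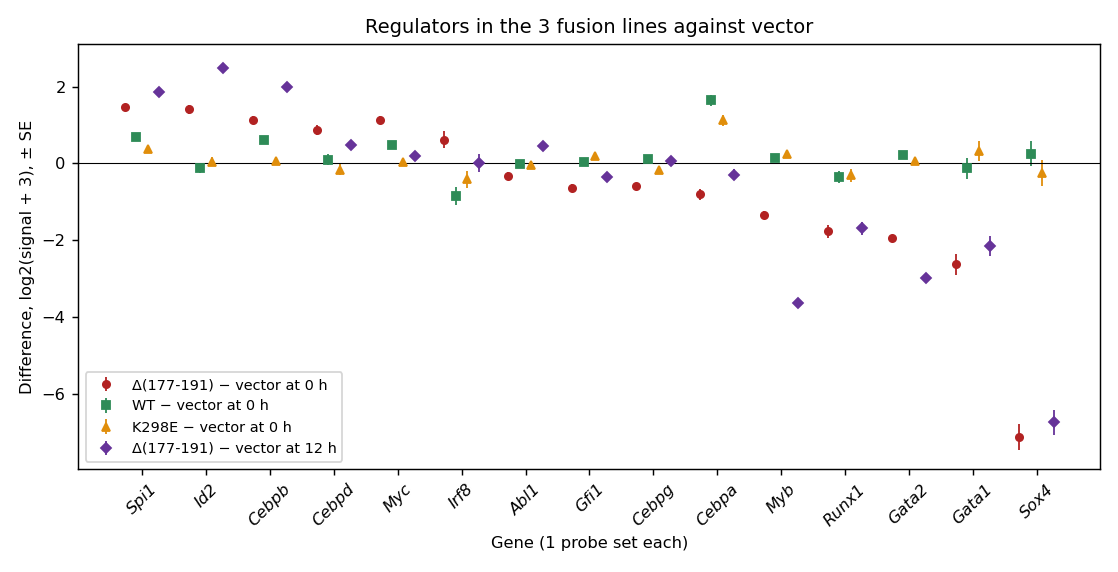
Differences in log2(signal + 3) with standard errors for 15 regulators in the Δ(177-191), WT and K298E lines against vector at 0 h and in the Δ(177-191) line against vector at 12 h (y); the 3 comparisons at 0 h share the vector arrays. Sox4, Gata1, Gata2, Runx1 and Myb lie below 0 in the Δ(177-191) line at both times, and Cebpa is lower in that line and higher in WT and K298E.

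Feedback genes of BCR/ABL, STAT5 and ERK did not move as 1 block, with 7 of 31 higher (22.6%) and 11 lower (35.5%). Among genes with a mean signal of 100 or more in either line, 20.7% were higher and 23% lower. The share higher was close to that, so no excess of rises is read from the list. The survival kinase gene Pim3 fell from 178, 188 and 199 to 10, 8 and 2, -4.42 ± 0.30 (adjusted p = 4.21e-16), and Pim1 did not pass (-0.17 ± 0.12, adjusted p = 0.337). Pim2 was called lower (-0.33 ± 0.07), though not under median centring (adjusted p = 0.0586). Dusp4, a phosphatase that ERK induces, fell from 1034, 1037 and 1065 to 228, 214 and 213, -2.24 ± 0.09, but Dusp6 (0.60 ± 0.11) rose. Dusp5 was called higher (0.65 ± 0.19), though not without vector array 1 (adjusted p = 0.0629) or under median centring (adjusted p = 0.0849). STAT5 targets Cish (-0.07 ± 0.09, adjusted p = 0.716) and Socs3 (0.06 ± 0.17, adjusted p = 0.876) did not pass, whereas Socs1 (-1.56 ± 0.13) and Socs2 (-0.73 ± 0.07) fell. Bcr (134, 117 and 127 against 77, 69 and 60, -0.85 ± 0.10) and Abl1 (171, 160 and 151 against 126, 124 and 130, -0.33 ± 0.11, adjusted p = 0.0168) were both lower. Whether these probe sets read the BCR/ABL transgene was not tested. The Abl1 call was lost under median centring (adjusted p = 0.16) and without Δ(177-191) array 2 (adjusted p = 0.0551) or vector array 1 (adjusted p = 0.087).

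Most cell cycle genes were not called, and those that were called were nearly all lower. Of 26 genes for CDKs, cyclins and their inhibitors 10 were lower, 1 higher and 15 not called. Of 39 DNA replication genes 10 were lower, 1 higher and 28 not called, and of 40 mitotic genes 15 were lower, 1 higher and 24 not called. These are 38.5%, 25.6% and 37.5% lower against 15.3% over all genes, with medians of -0.24, -0.15 and -0.17. Of the 6881 genes with a mean signal of 100 or more in either line, 23% were lower. The DNA replication share of 25.6% was close to that, so no excess is read from it. Cyclin E1 (Ccne1), the partner of CDK2, was at 252, 300 and 289 in vector and 82, 112 and 106 in Δ(177-191) cells, -1.47 ± 0.12 (adjusted p = 1.78e-13). Cdk4 was at 1579, 1792 and 1685 against 1219, 1126 and 1122, -0.54 ± 0.08 (adjusted p = 1.34e-06), with no overlap. Cdk2 was at 272, 278 and 292 against 287, 283 and 304, 0.05 ± 0.09 (adjusted p = 0.759), with overlap. Of the inhibitors, Cdkn2d (-0.89 ± 0.07) and Cdkn2c (-0.42 ± 0.08) fell, Cdkn1a (-0.12 ± 0.10, adjusted p = 0.491) did not pass, and Cdkn1b (189, 223 and 256 against 173, 152 and 103, -0.65 ± 0.28, adjusted p = 0.0934) passed only when the 6 arrays were fitted alone (adjusted p = 0.0118) or with array weights (adjusted p = 0.0284). The retinoblastoma gene Rb1 was the one that rose (0.94 ± 0.15). The largest falls of the replication and mitosis lists were Pola1 (-1.44 ± 0.09) and Pole2 (-0.94 ± 0.09), for DNA polymerase subunits, and the kinesin gene Kif4 (-1.54 ± 0.11), which lie in stretches of chromosomes X and 12 described further on.

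Myc was at 791, 814 and 953 in vector and 1863, 1841 and 1905 in Δ(177-191) cells, 1.13 ± 0.09 (adjusted p = 1.96e-13), and its antagonist Mxd1 rose as well (2.11 ± 0.27). Of 43 Myc and ribosome biogenesis genes 19 were higher, 3 lower and 21 not called, with a median of 0.21. Of 26 cytosolic ribosomal protein genes 2 were higher and none lower, a share of 7.69% against 13.2% over all genes. In the list of the amino acid response and ER stress 18 of 33 were lower, 3 higher and 12 not called, with a median of -0.43. The transcription factor gene Ddit3 (CHOP) went from 341, 374 and 372 to 99, 80 and 113, -1.88 ± 0.16 (adjusted p = 1.48e-12). Psat1, an enzyme of serine synthesis, went from 1237, 1377 and 1379 to 413, 434 and 466, -1.60 ± 0.07. Trib3 (-1.57 ± 0.15), Asns (-1.15 ± 0.06) and the driver Atf4 (-0.71 ± 0.07) were lower, while the ER chaperone genes Hspa5 (0.04 ± 0.11, adjusted p = 0.88) and Hsp90b1 (-0.11 ± 0.09, adjusted p = 0.464) did not pass.

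The other lists had calls on both sides or few calls, against 13.2% higher and 15.3% lower over all genes. Glycolysis and hypoxia had 10 of 26 higher (38.5%) and 3 lower (11.5%). Ndrg1 (1.22 ± 0.10) and the glucose transporter gene Slc2a1 (0.85 ± 0.09) were among its rises. Sterol and fatty acid synthesis had 7 of 26 higher (26.9%) and 5 lower (19.2%), and interferon response 7 of 28 higher (25%) and 3 lower (10.7%). Apoptosis and survival had 5 of 20 higher (25%) and 4 lower (20%), and myeloid cytokine receptors 6 of 20 higher (30%) and 4 lower (20%). Among estrogen receptor targets 4 of 17 were higher (23.5%), Esr1 itself included, and 6 lower (35.3%). No member of the lymphoid list was called of 8 tested, and of 8 fibroblast genes 1 was higher and 1 lower. Large falls outside the lists included Maged1, an adaptor gene on chromosome X (311, 353 and 375 against 2, 2 and 1, -6.23 ± 0.17), Btg1, an antiproliferative gene (547, 658 and 636 against 7, 10 and 8, -5.77 ± 0.25), and Igf2, a growth factor gene (1426, 1447 and 1502 against 69, 61 and 41, -4.64 ± 0.22). The T cell receptor gamma segments Trgv1 (-6.06 ± 0.23) and Trgv4 (-5.18 ± 0.22) were also lost from high vector levels, though such segments resemble each other in sequence.

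**Figure D4:**
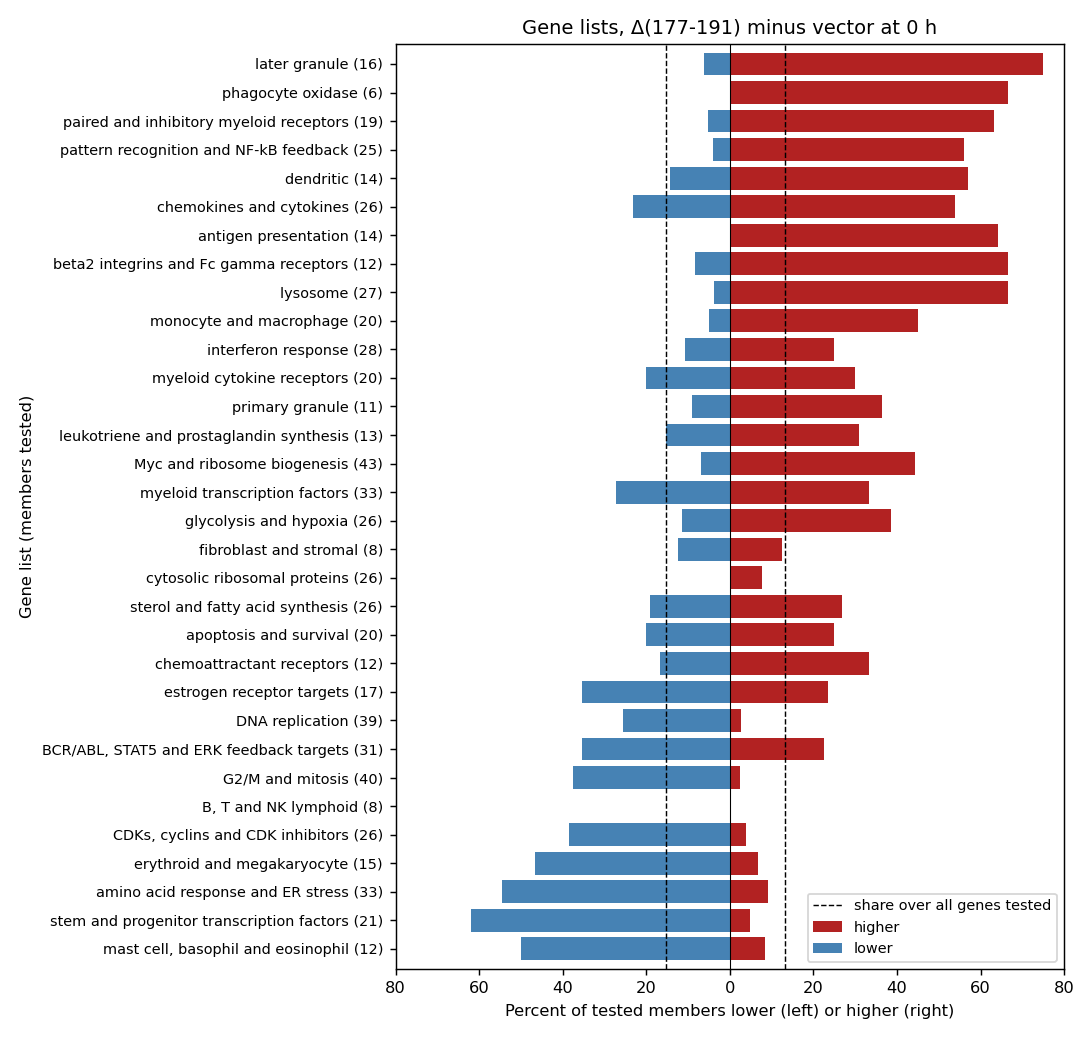
Percent of tested members higher (right, red) and lower (left, blue) in Δ(177-191) than in vector cells at 0 h for 32 gene lists, ordered by their median difference, with the share over all genes dashed (13.2% higher, 15.3% lower). Granule, oxidase, receptor, antigen presentation and lysosome lists reach above 60% higher for 6 of them, and stem cell factors reach 61.9% lower.

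Set against the other fusion lines before 4-HT, the Δ(177-191) line stood apart. It differed from WT in 1718 higher (13.4%) and 1812 lower genes (14.2%) and from K298E in 1815 higher (14.2%) and 2084 lower genes (16.3%). These comparisons share the Δ(177-191) arrays with the one against vector and are given side by side. By contrast, WT differed from vector in 372 higher (2.91%) and 359 lower genes (2.80%), and K298E in 385 (3.01%) and 441 (3.45%), on the same vector arrays. Lyz2 was -0.31 ± 0.13 in WT and -0.34 ± 0.13 in K298E relative to vector, neither past the threshold. Sox4 was 0.25 ± 0.33 and -0.25 ± 0.33, Gata2 0.21 ± 0.08 and 0.05 ± 0.08, and Myb 0.15 ± 0.10 and 0.24 ± 0.10, none of them called. Some genes were higher than vector in the other fusion lines too. Ccl9 reached 1876, 2225 and 2351 in WT and 860, 881 and 817 in K298E against 2789, 2518 and 2508 in Δ(177-191) cells, and Δ(177-191) minus WT was 0.28 ± 0.13 (adjusted p = 0.127). Anxa3 was at 21, 7 and 16 in vector, 90, 86 and 80 in K298E, 183, 196 and 209 in WT and 549, 563 and 591 in Δ(177-191) cells, 4 steps with no overlap. Spi1 showed the same order at 653, 575 and 629 in K298E and 843, 773 and 708 in WT, and S100a9 was at 23, 34 and 26 in WT and 45, 25 and 30 in K298E, called above vector in both (2.95 ± 0.31 and 3.18 ± 0.31) but far below Δ(177-191) cells.

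The arrays at 12 h after 4-HT are separate from those at 0 h and compare the same 2 lines again. There 2263 genes were higher (17.7%) and 3247 lower (25.4%). Of the 1690 genes higher at 0 h, 1104 (65.3%) were also higher at 12 h, which is 48.8% of the genes higher at 12 h, and 152 were lower. Of the 1956 lower at 0 h, 1444 (73.8%) were also lower, 44.5% of those at 12 h, and 114 were higher. Both lines were under 4-HT at 12 h, so this is not a second measurement of the untreated state. Itgam was 6.33 ± 0.16, Gata2 -2.98 ± 0.08 and Sox4 -6.74 ± 0.33 at 12 h. Myb stood at -3.63 ± 0.10. Cdh17, a cadherin gene at 5, 8 and 1 in vector and 245, 242 and 254 in Δ(177-191) cells at 0 h (5.15 ± 0.49), was 1.96 ± 0.49 at 12 h, and Gem (4.15 ± 0.29 at 0 h) was 0.57 ± 0.29 (adjusted p = 0.128).

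Genes that changed in WT cells under 4-HT, on WT arrays that the vector comparison does not use, were set beside the untreated Δ(177-191) line. The change of vector cells over the same 12 h was not subtracted, so effects of time or of 4-HT without the fusion may be included. The mean Cebpa signal fell from 602 to 96.3 in WT and from 190 to 45.7 in vector cells. That of Mpo went from 16.3 to 385 in WT and from 14.7 to 12.7 in vector cells. At 12 h against 0 h, 1887 genes were higher (14.7%) and 2067 lower (16.1%) in WT cells, of which 164 and 524 changed at least 2-fold. Of the 164 that rose, 59 (36.0%) were higher in untreated Δ(177-191) cells and 21 (12.8%) lower; their median difference was 0.16. Of the 524 that fell, 172 (32.8%) were lower and 106 (20.2%) higher, with a median of -0.18. Over all genes 13.2% were higher and 15.3% lower. Among genes with a mean signal of 100 or more in either line, 20.7% were higher and 23% lower. The shares in the same direction lay above both backgrounds. The opposite share of the 524, 20.2%, lay above that of all genes only, so no excess is read from it. Without the 2-fold limit, 444 of the 1887 (23.5%) were higher and 348 (18.4%) lower, and 588 of the 2067 (28.4%) were lower and 449 (21.7%) higher. The 1690 genes higher in Δ(177-191) cells thus split almost evenly, with 444 (26.3%) that rose and 449 (26.6%) that fell in WT cells. Genes on both lists included Igsf6 (WT change 5.23 ± 0.35), Cd33 (4.05 ± 0.31), Gpr84 (3.43 ± 0.13) and Anxa3 (3.19 ± 0.19) among rises and C1qtnf1 (-3.23 ± 0.29) and Fam20a (-2.56 ± 0.33) among falls. Mpo rose in WT cells over the 12 h (4.33 ± 0.40, adjusted p = 8.68e-12) but stayed at the floor in untreated Δ(177-191) cells. S100a9 (-1.10 ± 0.31) and Ctss (-1.39 ± 0.18) fell in WT cells over the 12 h although they were among the rises of the Δ(177-191) line. Tfec (2.80 ± 0.12) and Irak3 (1.87 ± 0.21) rose in WT cells and were lower in untreated Δ(177-191) cells. Gfi1 likewise rose in WT cells (1.58 ± 0.10).

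Along the chromosomes the differences were not evenly spread. Chromosome and gene order came from the RefSeq table, used for order alone. This look was added after the differences were seen, and its values are descriptions. On chromosome 12, 185 of 446 genes were lower (41.5%) and 29 higher (6.50%), with a median of -0.31; on chromosome X 125 of 381 were lower (32.8%) and 39 higher (10.2%), with a median of -0.16; on chromosome 9, 166 of 708 were higher (23.4%) and 89 lower (12.6%). On the other 17 chromosomes the share lower ran from 10.4% to 16%, the share higher from 9.58% to 16% and the median from -0.05 to 0.05. Taking the 6881 genes with a mean signal of 100 or more in either line, in chromosome order, the running median of 25 neighbours was at or below -0.3 over 25 or more genes in a row in 4 stretches. On chromosome X it spanned 87 of 213 such genes, centred from Firre to P2ry10, with 76 lower (87.4%), 3 higher and a median of -0.80, equal to a signal ratio of 0.573. The other 126 genes of X had 27 lower, 29 higher and a median of -0.01. Chromosome 12 held 2 stretches that together spanned 193 of 259 genes, from Eipr1 to Zfyve26 and from Zfyve1 to Akt1, with 142 lower (73.6%), 8 higher and a median of -0.51, a ratio of 0.703. The 43 genes of chromosome 12 before the first of them had 6 lower and 10 higher, with a median of 0.09. On chromosome 9 the stretch from Chordc1 to Herpud2 spanned 35 genes, 21 of them lower (60.0%), with a median of -0.36, while the other 373 genes of that chromosome had 145 higher and 51 lower and a median of 0.18. The lowest running median was -1.01 on X and -0.76 on chromosome 12, but -0.38 on chromosome 9, no deeper than the -0.39 on chromosome 7, where no stretch was long enough to count.

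These stretches were found in the 0 h arrays, and the same genes could be read in arrays not used to find them. At 12 h the Δ(177-191) minus vector median was -0.91 in the X stretch, -0.55 and -0.60 in those of chromosome 12 and -0.58 in that of chromosome 9. In WT minus vector at 0 h, which shares the vector arrays, the 4 medians were -0.01, -0.07, 0.00 and -0.06, and in K298E minus vector 0.03, -0.03, 0.00 and -0.15. K298E cells differed on chromosome 9 as a whole, where 103 of 708 genes were lower (14.5%) than in vector and 5 higher, with a median of -0.17. Only genes with a mean signal of 100 or more could be placed in the stretches. Of those named above, Maged1, Kif4 and Pola1 on X, Pole2 on chromosome 12 and Cdkn2d on chromosome 9 lie in them. P2ry10, at the edge of the X stretch, rose there (3, 4 and 1 against 157, 133 and 163, 4.80 ± 0.49). Sox4, Gata2, Myb, Runx1, Itga2b and Cpa3 do not lie on chromosomes 12 or X. Gata1 lies on X and Fos on chromosome 12. Their mean signals were below 100 in both lines, so neither was among the genes used to find the stretches. Whether they lie within one was not tested. Without the genes of these 2 chromosomes 1622 of 11973 genes were higher (13.5%) and 1646 lower (13.7%). Of the called members of the DNA replication list 8 of 10 falls were left, of the mitotic list 14 of 15, and of the stem cell factors 13 of 13. Falls left were 5 of 6 in the mast cell list, 6 of 7 in the erythroid and megakaryocyte list, 7 of 9 in that of myeloid transcription factors and 16 of 18 in that of the amino acid response and ER stress.

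**Figure D5:**
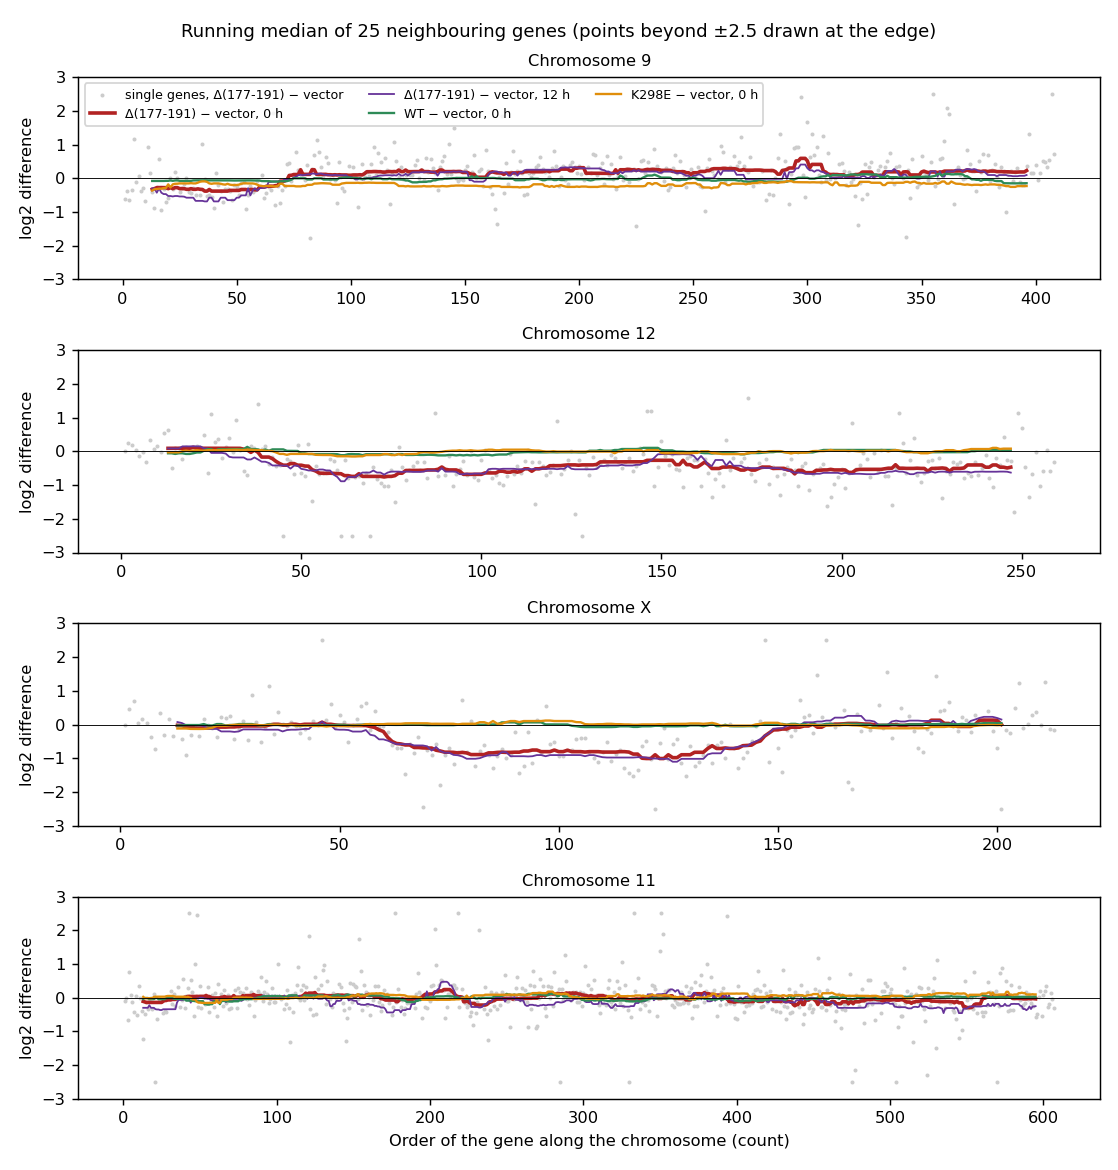
Differences in log2(signal + 3) (y) of genes with a mean signal of 100 or more, in their order along chromosomes 9, 12, X and, as an example without a stretch, 11 (x, count of genes); points are single genes at 0 h and lines are running medians of 25 neighbours in 4 comparisons. The red Δ(177-191) line drops below -0.3 over the middle of X, most of chromosome 12 and the start of chromosome 9, the 12 h line (purple) follows it, and the WT line (green) stays near 0.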

How the data were processed

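Affymetrix MOE430_2 arrays of 4 cell lines at 4 times were deposited as MAS5 signal intensities, in whole numbers on a linear scale (MAS5 per the submitters' processing notes). Its version and the genome build are not given in the sources used here. Each array had been scaled by the authors to one trimmed mean, as the values show. After leaving out 64 control probe sets of 45101, log2(signal + 3) was formed, and 27167 probe sets were kept whose highest of 16 group means exceeded the median of all values, a signal of 14. limma 3.58.1 (R 4.3.3) fitted 16 group means to 48 arrays with a variance trend and 32 residual degrees of freedom, and p-values were adjusted by Benjamini-Hochberg over all 27167 (threshold 0.05). A gene was represented by its probe set with 1 symbol and the highest mean, which gave 12800 genes.

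The members and lists were chosen with earlier results of these data known. The 32 lists hold 833 different genes, 640 of them tested. Named genes were the 15 highest and 15 lowest of signal 100 or more, up to 3 per list and direction, and a set of regulators. Others were 8 each way apart from the other fusion lines, 5 each way common to them and 8 each way shared with the WT change. Of the 152 genes named, 50 lie outside: Asns, Atf4, B2m, Casp1, Ccl3, Cdkn2c, Cish, Clec4e, Clec7a, Cxcl2, Dusp5, Dusp6, Elane, Fcgr1, Fcgr3, Fcgr4, Fli1, H2-Aa, H2-D1, H2-Eb1, Hdc, Hoxa9, Hsp90b1, Hspa5, Hvcn1, Ikzf2, Itgb2, Itgb3, Lcn2, Lipa, Lmo2, Mecom, Mmp9, Ngp, Pim1, Pim2, Pirb, Plac8, Prtn3, Rac1, Rac2, Slc18a2, Socs1, Socs2, Socs3, Tal1, Tlr2, Trem1, Trib3 and Zfpm1. Same-numbered arrays of the 2 lines deviated together with correlations of 0.01, -0.03 and 0.04, so the numbers were not used as pairs. The fit was tested on simulated data. Alternatives were the pseudocount, filter, scaling, arrays in the fit, variance trend, array weights, replicate block and leaving out each array; statmod 1.5.0 was loaded for limma. Genes of chromosomes 12 and X, gene order and promoter letters were looked at after the differences had been seen. Figures were drawn with matplotlib 3.10.9.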

Additional observations from a re-analysis of the deposited data

Results flagged for a closer look

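Some genes were called on opposite sides of vector cells in the Δ(177-191) line and in another fusion line before 4-HT, with a called difference between those lines (limma, adjusted p under 0.05); both sides share the vector arrays. Against WT, in log2 units of Δ(177-191) minus WT, Gzmb was 4.07, Cxcl2 3.50, Ndrg1 2.25, Slc2a1 2.14, Irf8 1.46 and Ikzf1 1.11, while Irak3 was -4.56, Cebpa -2.44 and Atf4 -1.05. Against K298E, Casp1 was 4.24, Lcn2 3.69, Ltf 3.30, Cd74 2.60, Fcgr3 1.55 and Psmb9 1.34. A gene that met the rule against both lines was listed under WT alone, Cebpa among them (-1.92 against K298E). The Irf8 call against vector is among those lost when single arrays are left out.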

How the results depend on the processing

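Of 133 named genes past the threshold in Δ(177-191) minus vector, 125 stayed on their side under every alternative run, and 8 lost the call under at least 1. None of the 133 changed sign. Of 19 not past it, 5 passed under at least 1 alternative. Median centring gave 3943 probe sets in place of 6255 for Δ(177-191) minus vector, with 858 genes higher; the share of calls that were higher went from 46.4% to 37.8% and the median over genes to -0.07. It gave 3634 probe sets and 884 lower genes against WT, 4162 probe sets with 1063 higher and 1288 lower genes against K298E, 324 with 70 higher and 134 lower for WT minus vector, 254 with 37 and 135 for K298E minus vector, and 833 lower genes for WT at 12 h minus 0 h. Array weights gave 1853 probe sets and 596 lower genes for WT minus vector and 2307 with 655 higher and 767 lower genes for K298E minus vector. The cause was not tested. The 64 shares of list members higher or lower moved by over 1.5 times in 14 cases under median centring, 13 with no filter, 16 of 62 with the filter at 100, 10 with all probe sets of each member, 5 with quantile normalization, 5 to 7 without single arrays, at most 4 under the other settings and 0 under the replicate block. Antigen presentation, for one, had 42.9% of members higher under median centring against 64.3%.

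Leaving out 1 array at a time gave 5363 to 5459 probe sets for Δ(177-191) minus vector, with 1447 to 1499 genes higher and 1678 to 1727 lower. For WT minus vector it gave 722 to 984 probe sets, 243 to 307 higher and 218 to 320 lower genes; the lowest counts came without WT array 2 (722 probe sets, 243 higher) and vector array 3 (218 lower). For K298E minus vector it gave 829 to 961 probe sets, 219 to 286 higher and 299 to 338 lower genes, lowest without vector array 3 (829) and K298E array 3 (219 higher). With the replicate block 6312 probe sets were called for Δ(177-191) minus vector, 1699 genes higher and 1973 lower, and it changed no call named in the text. With 3 arrays a group, small differences of dim genes were not detectable.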
